A study of Mus musculus with 20 samples.

Results

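The genes described here are the nuclear genes of oxidative phosphorylation (OXPHOS), followed in regulatory T cells (Tregs) and CD8+ T cells that were given IL-2 or IL-2-REH. They were taken by symbol alone, as those beginning with Nduf and a letter a, b, c, s or v before a number, with Uqcr, with Cox4 to Cox8, or with Atp5. These symbols made 80 of the 23992 genes measured, 35 of complex I, 8 of complex III, 20 of complex IV and 17 of complex V. Among the 80 are 7 core subunits of complex I, 8 alternative isoforms of complex IV subunits, and Atp5s and Atp5sl, which carry the prefix of the ATP synthase without being subunits of it.

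OXPHOS is the last stage of respiration in mitochondria. Complex I takes electrons from NADH, complex III passes them to cytochrome c, complex IV hands them to oxygen, and the ATP synthase, complex V, uses the proton gradient that the chain builds up. Most subunits are encoded in the nucleus and a few in mitochondrial DNA, and activated T cells are known to build up mitochondria as they leave quiescence, while Tregs are known to rely on respiration.

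RNA was sequenced from Tregs and CD8+ T cells of mouse spleen and lymph node. Tregs, which are CD4+ T cells expressing Foxp3, came from B6-Foxp3EGFP mice by a sort on GFP. CD8+ T cells came from C57BL/6J mice by the methods, whereas the sample records give C57BL/6N as the strain of all samples. Both kinds of cell were studied without cytokine at 0 hr, and after 90 min or 4 hr in 200 nM of cytokine. The cytokine was IL-2 or IL-2-REH, a partial agonist made by changing IL-2. No library was kept without cytokine for 90 min or 4 hr. In differences from unstimulated cells, cytokine and time in culture thus cannot be told apart. The 5 Treg groups had 3 libraries each, numbered 1 to 3, and the 5 CD8+ groups had 1 library each, so that the CD8+ data hold no replicate error. Neither the age of the mice nor whether the replicates were separate animals is given in the sources used here, so p-values measure the spread between libraries, which may be technical.

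The 15 Treg libraries held 20201392 to 63903764 reads on genes and the 5 CD8+ libraries 38201668 to 45189835. Between 0.404% and 0.639% of these fell on the 80 genes. The cell types carried their markers, with 6 Treg markers summing to 810.1 to 1492 RPKM (a read count corrected for the length of the exons and the size of the library) in Tregs and 37.4 to 93.0 in CD8+ T cells, and 2 CD8 markers summing to 282 to 728 in CD8+ T cells and 4.46 to 12.7 in Tregs. Of other cells, 6 erythroid genes summed to 132 to 231 RPKM in the 5 Treg libraries of replicate 3, to 5.33 to 20.5 in the other 10 Treg libraries and to 2.37 to 7.87 in CD8+ T cells, and 7 macrophage genes summed to 7.31 to 86.3 in Tregs and 13.2 to 40.6 in CD8+ T cells. Their part in the results was not tested. Treg replicate 3 with IL-2 at 4 hr stood apart from the others in the genes described here, and their single-gene fold changes for IL-2 at 4 hr are also given without it.

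The promoters of these genes are shown first, since 20 of 66 hold at least 1 of 3 short elements that the choice by symbol did not use, while 46 hold none. RefSeq (GRCm38.p6) gave a promoter window of 300 bases, 250 before the start of transcription and 50 from it, for 66 of the 80 genes, and 57 of these windows start within 50 bases of the transcript that was counted. The palindrome known to be bound by the factor NRF1 (its letters are the capitals in the first set of sequences), CCGGAAGT, known to be bound by ETS factors such as GABPA, and AAGATGGC, known to be bound by YY1, were searched on both strands, and these words do not contain each other. The NRF1 word stood in 5 of the 66 windows (7.58%) and in 0.971% of all 32851 promoter windows. The ETS word stood in 5 (7.58%) against 3.89%, and the YY1 word in 10 (15.2%) against 2.75%. At least 1 of the 3 words was found in 20 of the 66 windows (30.3%), against 7.32% of all. The median share of G and C was 57.2% in the 62 windows of genes other than alternative isoforms, against 52.7% over all windows. Its part in these counts was not tested. None of the 4 alternative isoforms with a window held any of the 3, as against 20 of the other 62 genes, and 4 windows are too few to show a difference. A match is a string of letters and was not tested for binding.

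The NRF1 word stands upstream of the start in 4 of its 5 genes, and is shown in capitals, 5′ to 3′ on the strand of the gene, with 25 bases to each side. These are 2 genes of the ATP synthase, 1 accessory subunit of complex I and 1 subunit of complex IV.
Atp5g2 (chr15:102671055-102671114, minus strand): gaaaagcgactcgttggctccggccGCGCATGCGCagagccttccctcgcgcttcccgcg
Atp5k (chr5:108434415-108434474, minus strand): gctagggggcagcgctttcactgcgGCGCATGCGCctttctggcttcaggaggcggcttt
Ndufa11 (chr17:56717677-56717736, plus strand): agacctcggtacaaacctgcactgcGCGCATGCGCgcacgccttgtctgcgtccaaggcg
Cox6a1 (chr5:115349086-115349145, minus strand): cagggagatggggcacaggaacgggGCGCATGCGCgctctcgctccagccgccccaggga

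The ETS word is shown in capitals in the 3 genes that hold it wholly before the start, which are Atp5h of the ATP synthase and Uqcr11 and Uqcrh of complex III. In Atp5h and Uqcrh it is read on the opposite strand, as ACTTCCGG.
Atp5h (chr11:115419926-115419983, minus strand): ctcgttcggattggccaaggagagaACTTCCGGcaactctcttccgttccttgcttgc
Uqcr11 (chr10:80406855-80406912, minus strand): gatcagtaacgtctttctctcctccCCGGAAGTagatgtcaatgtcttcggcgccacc
Uqcrh (chr4:116075071-116075106, minus strand): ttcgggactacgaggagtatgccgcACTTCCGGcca

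The YY1 word stood at or after the first transcribed base in 9 of the 10 genes that hold it, and on the strand of the gene in 9 of the 10. Over all promoter windows, 40.2% of 927 such words stood at or after the start and 61.2% were on the strand of the gene. The word holds the letters of a start codon. It is shown in capitals within 30 bases of 5 genes, in which it begins 23 to 34 bases from the start.
Ndufa3 (chr7:3617384-3617413, plus strand): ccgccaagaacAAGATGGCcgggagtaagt
Ndufa9 (chr6:126849097-126849126, minus strand): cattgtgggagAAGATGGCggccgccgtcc
Ndufc1 (chr3:51408915-51408944, minus strand): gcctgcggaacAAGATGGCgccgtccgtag
Ndufs6 (chr13:73328433-73328462, minus strand): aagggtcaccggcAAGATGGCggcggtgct
Atp5j2 (chr5:145191500-145191529, minus strand): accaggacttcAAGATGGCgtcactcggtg

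Levels ranged widely between the genes and little between cell types. At least 1 RPKM, as a mean over the 20 libraries, was reached by 73 of the 80 genes, among them all 35 of complex I, all 8 of complex III, all 17 of complex V and 13 of 20 of complex IV. The median of the 73 was 36.7 RPKM, against 9.07 over the 10458 of all 23992 genes that reached 1 RPKM. Genes of complex V had the highest median, 85.6 RPKM, followed by complex IV at 74.7, complex III at 42.1 and complex I at 25.2. The order of the 73 genes was nearly the same in both cell types, with a Spearman rho of 0.96 between their mean RPKM in CD8+ T cells and in Tregs. That value describes 73 points, which share libraries and transcript lengths.

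**Figure D1:**
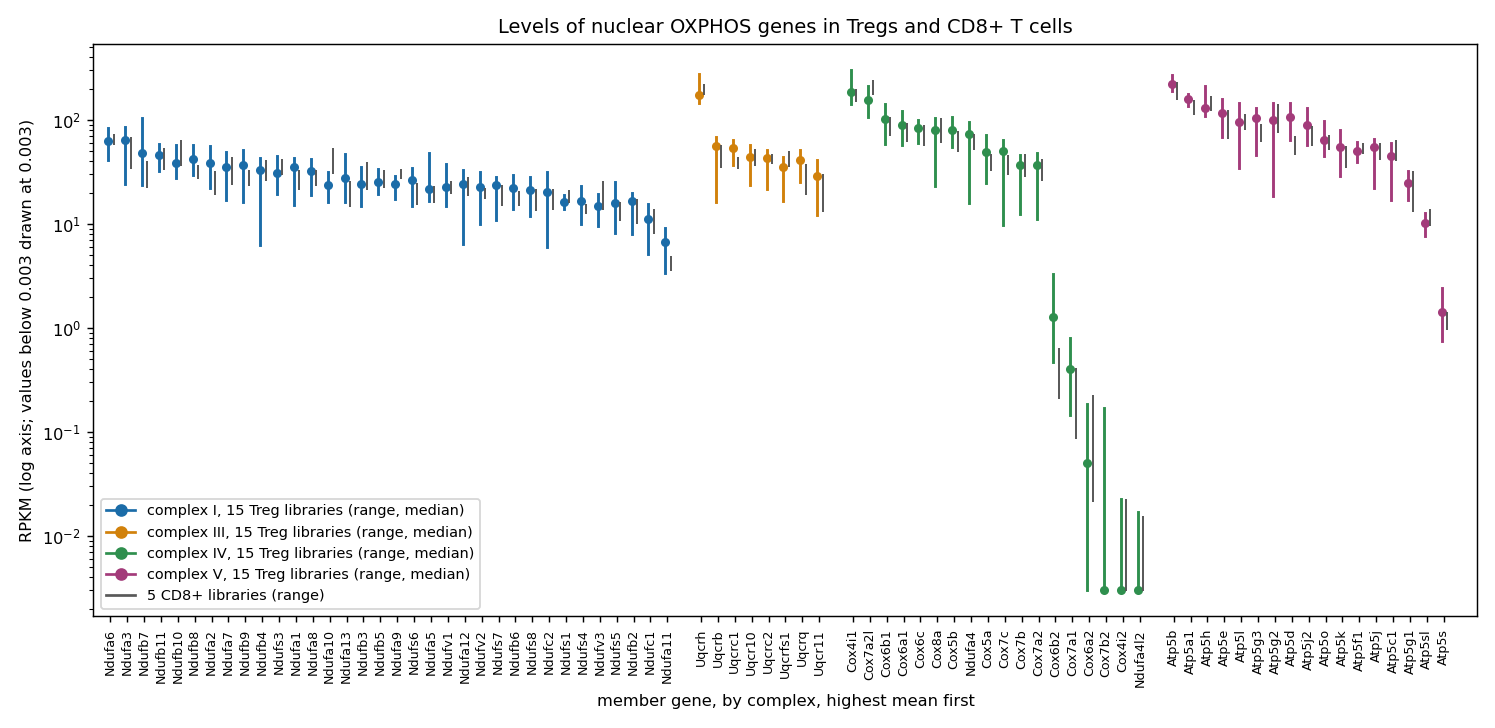
RPKM of single genes (log axis) by complex, with the range and median over 15 Treg libraries in colour and the range over 5 CD8+ libraries in grey. Cox8b and Cox8c, with 0 reads, and 1 gene that is not reported singly are not drawn. The ranges of the cell types overlap in each gene drawn with a mean of at least 1 RPKM, and the alternative isoforms of complex IV sit far below their partners.

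Complex V was led by Atp5b, the catalytic beta subunit, with a mean of 217 RPKM over the 20 libraries. In Tregs, Atp5b measured 223, 211 and 190.1 RPKM unstimulated, 244, 229 and 201 with IL-2 at 90 min, 248, 222 and 215 with IL-2-REH at 90 min, 199, 272 and 224 with IL-2 at 4 hr, and 210.5, 239.6 and 233 with IL-2-REH at 4 hr. In CD8+ T cells it measured 224 unstimulated, 207 and 185 with IL-2 and IL-2-REH at 90 min, and 202 and 159.1 at 4 hr. The Treg groups overlap, and the CD8+ library with IL-2-REH at 4 hr is the lowest of all 20. Atp5a1, the alpha subunit, had a mean of 151 RPKM and Atp5h, a subunit of the stalk, 139. At the other end were Atp5g1, 1 of 3 genes for the membrane ring, at 23.9, Atp5sl at 10.7 and Atp5s at 1.35. The ring protein was drawn from all 3 genes, with median shares of 42.6% for Atp5g2, 45.7% for Atp5g3 and 11.3% for Atp5g1 in Tregs and 46.9%, 43.2% and 10.9% in CD8+ T cells. These 3 genes encode the same mature protein, so the shares speak of the transcripts only, and the unique mapping of reads may lower genes with close copies or pseudogenes.

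Complex IV was led by Cox4i1, the first isoform of subunit 4, with a mean of 188 RPKM, followed by Cox7a2l, known for joining complexes III and IV, at 169.6, and Cox6b1, a subunit on the outer face, at 97.7. The lowest of its genes with at least 1 RPKM was Cox6b2, the isoform of Cox6b1 known from testis, at 1.38. The other alternative isoforms, most of which are known from heart, muscle, lung or testis, were near 0. Cox7a1 had 175 reads in all 20 libraries, Cox6a2 had 52, Cox4i2 had 7, Cox7b2 had 5, Ndufa4l2 had 2, and Cox8b and Cox8c had 0. Cox4i2 made at most 0.0139% of the summed RPKM of Cox4i1 and Cox4i2 in any library. Cox8a, of which no paired isoform was read, ranged from 23.2 to 104 RPKM.

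Complex III was led by Uqcrh, the hinge protein, with a mean of 185 RPKM, far above the next of its genes, Uqcrb at 51.3 and the core protein gene Uqcrc1 at 49.0. Its lowest were Uqcrfs1, the Rieske iron-sulfur protein, at 36.7, Uqcrq at 36.4 and Uqcr11 at 27.2. Complex I lay lower and closer together. Its highest were Ndufa6 at 64.6, Ndufa3 at 60.9 and Ndufb7 at 45.4, all of them accessory subunits. Of the core subunits, Ndufs1, which takes part in the oxidation of NADH, stood lowest at 16.8. Lowest were Ndufb2 at 14.4, Ndufc1 at 10.9 and Ndufa11 at 5.97. Exons of 22 of the 80 genes overlap a gene on the other strand and those of 3 a gene on the same strand in GENCODE, Ndufb2, Ndufa3, Ndufa11, Cox4i1 and Atp5a1 among them. Whether strand was used in counting is not given in the sources used here, so reads in these overlaps are uncertain.

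The first question was whether these genes differed between Tregs given either cytokine and unstimulated Tregs. Of the 80 genes, 74 passed the filter on low counts. With edgeR's quasi-likelihood test on the read counts, none of the 74 passed an adjusted p of 0.05 in any of the comparisons. With IL-2 at 90 min the count was 0 of 74, where 0.854% of 14992 genes tested were called, and with IL-2-REH at 90 min 0 of 74, where 0.0934% were called. With IL-2 at 4 hr it was 0 of 74, where 2.26% were called, and with IL-2-REH at 4 hr 0 of 74, where 0.314% were called. At an unadjusted p under 0.05 there were 0, 0, 6 and 1 of the 74. DESeq2, which called 3.74%, 0.754%, 6.64% and 3.77% of all genes in the 4 comparisons, called 0 of the 74 in each, with 0, 0, 7 and 1 at an unadjusted p under 0.05. With the replicate number as a block, edgeR called 1.83%, 0.213%, 6.94% and 3.03% of all genes in the 4 comparisons and again 0 of the 74. With replicate 1 left out it called 17.3%, 15.7%, 13.4% and 10.7% of all genes and 0 of the 74. The lowest adjusted p of a member was 0.447, 0.543, 0.171 and 0.186 in the 4 comparisons.

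Median fold changes were small. On the log2 scale the median of the 74 genes was −0.10 after IL-2 and −0.02 after IL-2-REH at 90 min, against −0.06 and −0.05 over all genes tested. At 4 hr it was −0.13 after IL-2 and 0.11 after IL-2-REH, against 0.00 and 0.01 over all genes. The median standard error of a gene was 0.24 in each of the 4 comparisons, so most of these fold changes lie within the spread between libraries. The 95% interval of the log2 fold change lay within 1 in either direction, that is, within a doubling or a halving, for 66 of 74 genes after IL-2 and 68 after IL-2-REH at 90 min, and for 57 and 62 at 4 hr. For the rest, larger changes lie within the interval. Tested on simulated counts of the comparison of IL-2 at 4 hr with unstimulated cells, over 14528 genes, the fit found 57.1% of genes changed by 1 on the log2 scale and 99.1% of those changed by 2.

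**Figure D2:**
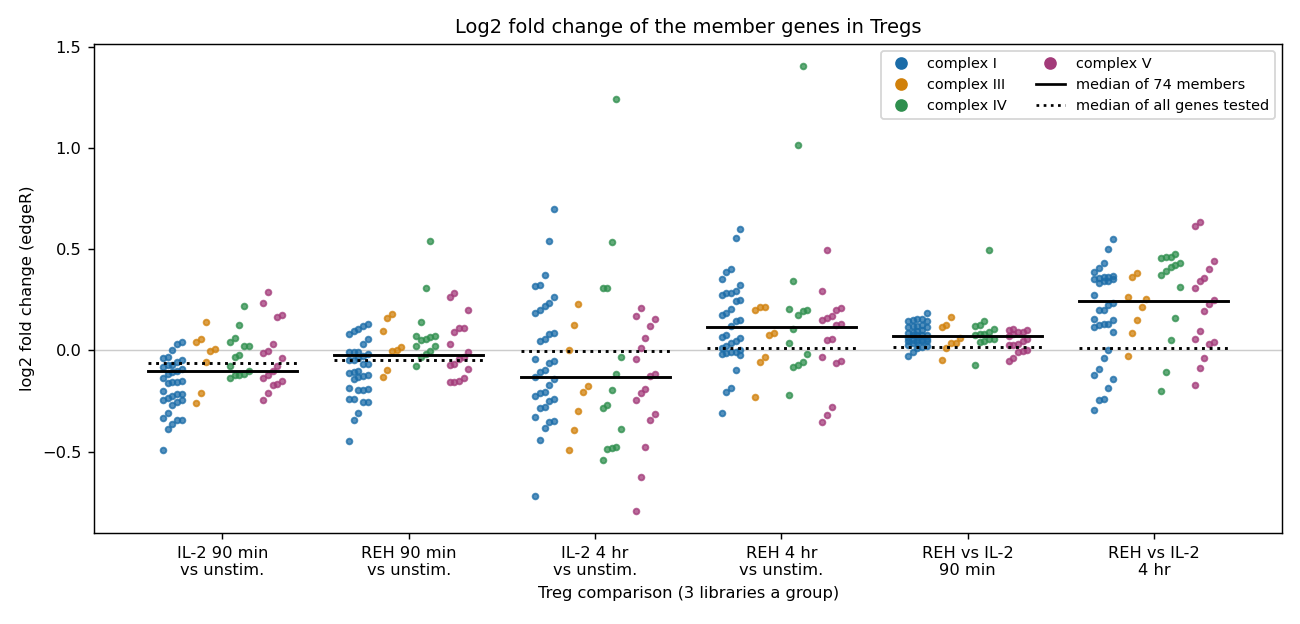
Log2 fold changes of the 74 genes tested in Tregs (points, coloured by complex) in 6 comparisons of 3 against 3 libraries. Solid and dotted lines are the medians of the 74 and of all genes tested. None of the points passed the test, and the points spread most with IL-2 at 4 hr, where the median of the 74 is −0.13.

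By complex, complex I had the lowest median at 90 min, −0.16 after IL-2 and −0.10 after IL-2-REH. Of its 35 genes 32 and 28 lay below 0, and the share over all genes is not given here. The replicates differed in direction. Summed RPKM of complex I was 1030, 1161 and 973 unstimulated in replicates 1 to 3. At 90 min it was 1052, 916 and 625 after IL-2, and 1229, 848 and 695 after IL-2-REH. The median of complex I at 4 hr was −0.10 after IL-2 and 0.12 after IL-2-REH. Complex III had medians of 0.00 and 0.01 at 90 min, and of −0.19 after IL-2 and 0.08 after IL-2-REH at 4 hr. Complex IV had −0.03 and 0.05 at 90 min, and −0.23 and 0.14 at 4 hr. Complex V had −0.08 and −0.03 at 90 min, and −0.13 and 0.12 at 4 hr. The largest differences at 90 min were in accessory subunit Ndufb3, at −0.49 with IL-2 (adjusted p = 0.447 by edgeR) and −0.45 with IL-2-REH (0.543), in Atp5d, the delta subunit of the ATP synthase, at 0.29 with IL-2 (0.697), and in Cox6b2, at 0.54 with IL-2-REH (0.650). Ndufb3 measured 19.2, 33.4 and 35.4 RPKM unstimulated, 21.8, 18.8 and 15.9 with IL-2 and 29.5, 15.1 and 14.9 with IL-2-REH at 90 min. With either cytokine it was thus higher than unstimulated in replicate 1 and lower in replicates 2 and 3.

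Cox6b2 had the highest fold change at 4 hr with either cytokine. In Tregs it measured 0.873, 1.19 and 1.07 RPKM unstimulated and 1.24, 1.26 and 0.473 with IL-2 at 90 min. With IL-2-REH at 90 min it measured 1.40, 1.50 and 1.21. At 4 hr it measured 1.29, 2.64 and 3.09 with IL-2 and 1.79, 3.10 and 3.33 with IL-2-REH. All 6 libraries at 4 hr lie above the 3 unstimulated ones, and library 1 of each cytokine is the lowest of its group. The group means were 1.04 ± 0.160 (SD, n = 3) unstimulated, 2.34 ± 0.937 after 4 hr of IL-2 and 2.74 ± 0.832 after 4 hr of IL-2-REH. On the log2 scale its fold change was 1.24 with a standard error of 0.45 (adjusted p = 0.171 by edgeR) with IL-2 and 1.40 with a standard error of 0.45 (adjusted p = 0.186) with IL-2-REH, so neither passed the test, and without replicate 3 of IL-2 at 4 hr the value after IL-2 was 0.90. Each value rests on few reads, from 14 to 108 per Treg library. In CD8+ T cells it measured 0.212 RPKM unstimulated, 0.624 and 0.523 with IL-2 and IL-2-REH at 90 min, and 0.256 and 0.509 at 4 hr, on 6 to 20 reads per library. Cox6b2 made 0.692% to 4.95% of the Cox6b1 and Cox6b2 pair in Tregs and 0.202% to 0.738% in CD8+ T cells.

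The 250 bases before the start of Cox6b1 and of Cox6b2 are shown since this was the only pair of a common and an alternative isoform in which both reached 1 RPKM. Neither window of 300 bases holds the NRF1, ETS or YY1 word. Both hold CCAAT or its reverse complement ATTGG, set in capitals, as do 37.4% of all promoter windows and 43.9% of the 66.
Cox6b1 (chr7:30626115-30626364, minus strand): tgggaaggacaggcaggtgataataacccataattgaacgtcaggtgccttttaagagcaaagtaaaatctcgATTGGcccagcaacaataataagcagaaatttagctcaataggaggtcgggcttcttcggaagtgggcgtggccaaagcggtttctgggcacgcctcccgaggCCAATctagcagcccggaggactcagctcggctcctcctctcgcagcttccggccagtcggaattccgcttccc
Cox6b2 (chr7:4753095-4753344, minus strand): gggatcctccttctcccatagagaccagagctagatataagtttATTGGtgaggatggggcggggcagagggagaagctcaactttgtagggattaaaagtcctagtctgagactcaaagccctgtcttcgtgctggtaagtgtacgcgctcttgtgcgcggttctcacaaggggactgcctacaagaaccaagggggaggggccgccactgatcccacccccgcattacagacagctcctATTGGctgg

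Other genes lower with IL-2 at 4 hr were spread over all 4 complexes. Atp5g2 of the membrane ring measured 108, 145 and 105 RPKM unstimulated, 87.4, 95.4 and 18.7 with IL-2 and 102, 89.5 and 86.5 with IL-2-REH at 4 hr. All 6 libraries at 4 hr lie below the unstimulated ones, and replicate 3 with IL-2 lies far below its partners. For Atp5g2 the log2 fold change after IL-2 was −0.79 (standard error 0.38, adjusted p = 0.301 by edgeR), and it was −0.37 without that library. Ndufc2, an accessory subunit of complex I, measured 21.9, 31.9 and 23.7 RPKM unstimulated and 20.5, 18.7 and 5.96 with IL-2 at 4 hr. Its log2 fold change was −0.72 (standard error 0.33, adjusted p = 0.282), and −0.37 without replicate 3 of IL-2 at 4 hr. Further values were −0.62 for Atp5c1, the gamma subunit (adjusted p = 0.199), −0.54 for Cox8a (0.374), −0.49 for Uqcrfs1 (0.226), −0.48 for Cox7a2l (0.260) and −0.38 for Ndufa10 (0.230). Without that library these were −0.34 for Atp5c1, −0.19 for Cox8a, −0.28 for Uqcrfs1, −0.57 for Cox7a2l and −0.29 for Ndufa10. On the high side were Ndufb7 at 0.70 (0.340), Uqcrc1 at 0.23 (0.533) and Atp5b at 0.21 (0.549), which without it stood at 0.17, 0.13 and 0.16.

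With IL-2-REH at 4 hr the gene of complex I with the highest fold change was Ndufs5, an accessory subunit. It measured 13.9, 15.8 and 13.1 RPKM unstimulated, 20.8, 19.3 and 11.4 with IL-2 and 25.3, 17.9 and 21.1 with IL-2-REH at 4 hr. The libraries with IL-2-REH lie above the unstimulated ones, while those with IL-2 overlap them. Its log2 fold change with IL-2-REH was 0.60 (standard error 0.29, adjusted p = 0.402 by edgeR). Atp5s stood at 0.50 (0.517) and Uqcr11 at 0.21 (−0.04 without replicate 3), whereas Atp5g2 stood at −0.35 (0.749), Ndufc2 at −0.31 (0.748), Uqcrfs1 at −0.23 (0.675) and Cox6c at −0.22.

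Genes whose 3 RPKM values all lay to 1 side of the unstimulated ones were counted beside the share over all genes. With IL-2 at 4 hr, 1 of 73 genes lay above (Cox6b2) and 7 lay below, against 6.27% and 9.15% of all 10473 genes of at least 1 RPKM in Tregs. With IL-2-REH at 4 hr, 5 lay above and 2 below, against 8.66% and 6.12%. The 7 were Atp5c1, Atp5g2, Atp5o, Cox6c, Cox7a2l, Ndufb5 and Ndufc2, and the 5 were Cox5a, Cox6b2, Ndufa11, Ndufs5 and Uqcrc1. At 90 min there were 0 above and 5 below with IL-2, against 9.18% and 4.5%, and 1 above and 1 below with IL-2-REH, against 7.31% and 3.26%. A single comparison of 3 with 3 libraries cannot reach an exact two-sided permutation p below 0.10.

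The second question was whether the cytokines differed from each other in Tregs. At 90 min 0 of 74 genes passed edgeR's test, where 0.0133% of all genes were called, and at 4 hr 0 of 74, where 0.0267% were called. At an unadjusted p under 0.05 there were 0 and 3, and DESeq2 called 0 of the 74 at either time, with 0.1% and 0.387% of all genes called. With the block the counts were again 0 and 0 of the 74, with 0.0133% and 0.0667% of all genes called, and without replicate 1 they were 0 and 0, with 0% of all genes called at either time. The median log2 fold change of IL-2-REH over IL-2 was 0.07 at 90 min, with 66 of 74 genes above 0, and 0.24 at 4 hr, with 59 above 0, against medians of 0.02 and 0.01 over all genes. The same-numbered pairs differed in sign, and in pair 2 the ratio of RPKM + 1 lay below 0 in 65 of 73 genes at 90 min and in 59 of 73 at 4 hr. Without replicate 3 of IL-2 at 4 hr the median at 4 hr was 0.12, and without replicate 3 of every group it was 0.01. At 4 hr the 3 genes at an unadjusted p under 0.05 were Atp5l, a membrane subunit of the ATP synthase, at 0.64, Ndufv2, a core subunit of complex I, at 0.55, and Cox7a2l at 0.46 (adjusted p = 0.9996 for each by edgeR). Without replicate 3 of IL-2 at 4 hr they stood at 0.33, 0.29 and 0.55. In the same-numbered pairs the log2 ratio of RPKM + 1 was 0.27, −0.02 and 2.03 for Atp5l and 0.22, 0.12 and 1.58 for Ndufv2, so that pair 3 was far above the others in both. Cox7a2l measured 106, 131 and 124 RPKM with IL-2 and 149, 153 and 214 with IL-2-REH, so that the groups do not overlap. Groups that do not overlap in this direction were found in 4 of 73 genes, against 6.31% of all genes, and in the other direction in 0 of 73, against 2.4%. At 90 min they were found in 0 of 73 in either direction, against 2.51% and 3.44%. The change of this difference between the time points was tested as an interaction, which passed for 0 of 74 genes, with 0 of 74 at an unadjusted p under 0.05 and 0% of all genes called. Between 90 min and 4 hr, 0 of 74 genes passed with either cytokine, where 0% of all genes were called, and 3 of 74 under IL-2 and 0 under IL-2-REH had an unadjusted p under 0.05. The count was also 0 of 74 for each cytokine by DESeq2, where 2.54% and 1.67% of all genes were called, with the block, where 0.387% and 0.04% were, and without replicate 1, where 4.32% and 3.96% were. RPKM values at 4 hr lay wholly above those at 90 min in 3 of 73 genes under IL-2 (Cox6b2, Ndufb3 and Ndufs6), against 7.97%, and wholly below in 1 (Cox7a2l), against 10.4%, while under IL-2-REH these were 1 (Cox6b2), against 12.3%, and 0, against 8.4%.

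The summed level of the module varied between libraries of the same group. The RPKM of the 80 genes summed to 4170.2, 4338 and 3761 in unstimulated Tregs and to 4151, 3920.5 and 2827 with IL-2 at 90 min. With IL-2-REH at 90 min they summed to 4729, 3654 and 3121. At 4 hr the sums were 3803, 4018 and 3305 with IL-2 and 4325, 3834 and 4849 with IL-2-REH. The lowest and the highest sum are thus 1.72 times apart, and both belong to replicate 3. The group means, 4089.7 ± 297 (SD, n = 3) unstimulated, 3633 ± 707 and 3835 ± 819 with IL-2 and IL-2-REH at 90 min, and 3709 ± 366 and 4336 ± 508 at 4 hr, come from groups whose ranges all overlap. Complex I had the widest range, from 625 to 1259 RPKM.

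**Figure D3:**
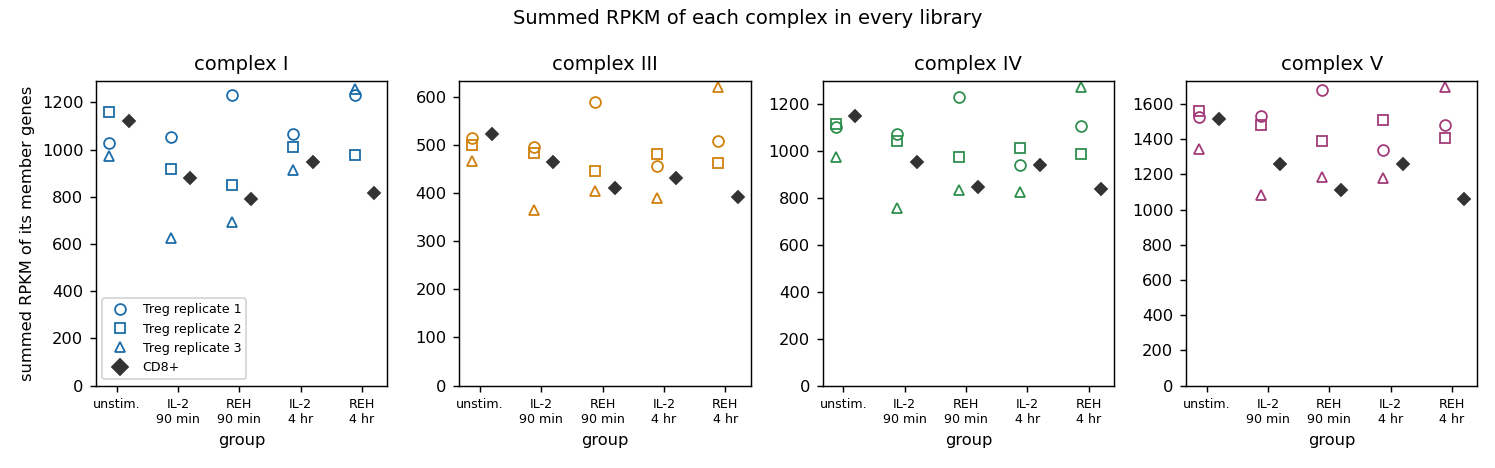
Summed RPKM of the genes of each complex in every library, with open symbols for Treg replicates 1 to 3 and filled diamonds for the CD8+ libraries. The Treg libraries of a group spread as widely as the groups, with complex I between 625 and 1259 RPKM.

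The counted transcripts of the 80 genes had a median exon length of 649 bases, against 2133 over all genes. The median log2 ratio between 2 replicates of a group ranged from −0.66 to 0.32 over 15 such pairs, with a median size of 0.24. In the pair with the largest value, IL-2-REH at 90 min, replicate 3 over 1, the median was −0.66 for 73 members and −0.46 for genes outside the module with exons of at most 1000 bases and at least 10 RPKM, but −0.23 over all genes. In IL-2-REH against IL-2 at 4 hr, the medians of same-numbered pairs were 0.19, −0.06 and 0.70 for the members and 0.23, −0.01 and 0.71 for the 515 short genes outside the module. The part of transcript length or RNA quality in the differences between groups was not tested.

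**Figure D4:**
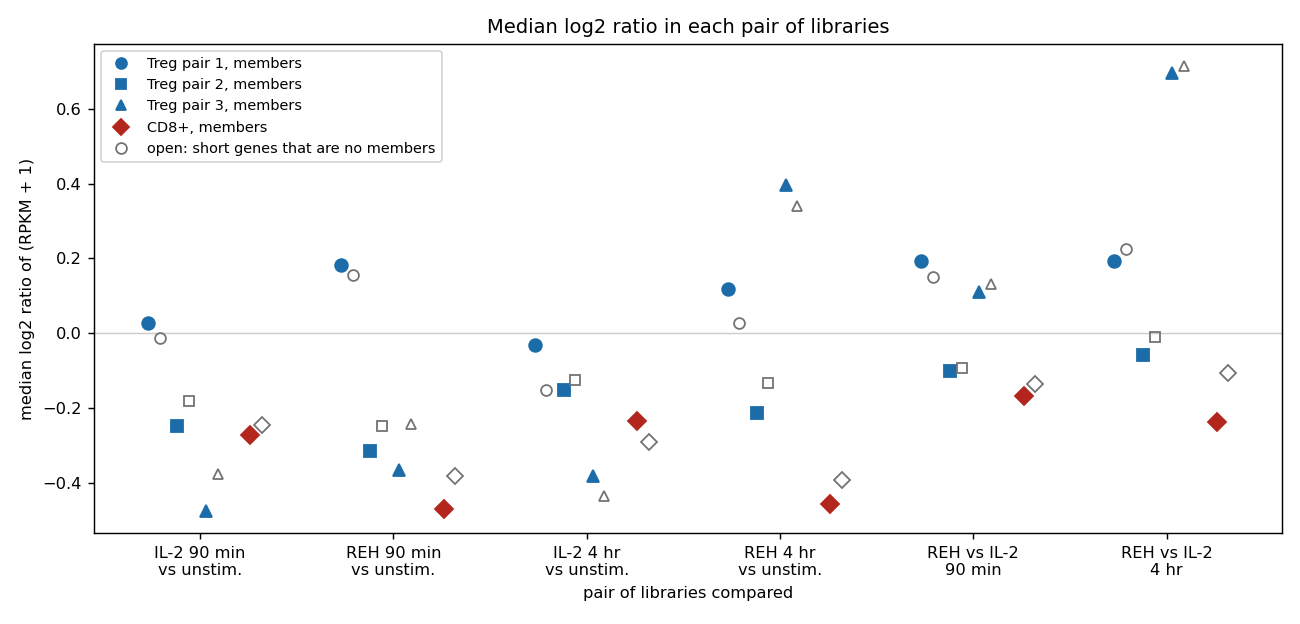
Median log2 ratio of RPKM + 1 in each pair of libraries, filled for the module and open for short genes outside it, with blue symbols for same-numbered Treg pairs 1 to 3 and red diamonds for the CD8+ pair. Open and filled symbols lie at 0.71 and 0.70 in Treg pair 3 of IL-2-REH against IL-2 at 4 hr, and at −0.10 and −0.24 in the CD8+ pair of the same comparison.

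In replicate 3 of IL-2 at 4 hr the genes of the module scattered in both directions. On the log2 scale its depth-scaled counts differed from the mean of its 2 partners by more than 1 in 19 of 74 genes, 3 higher and 16 lower. That is near the share over all genes tested, 24.7%. In replicate 1 of unstimulated Tregs, such differences were found in 30.4% of all genes and in 0 of the 74. The standard deviation of the difference over the 74 genes was 0.86 in replicate 3 of IL-2 at 4 hr. It was 0.17 to 0.49 in the other 14 Treg libraries. Ndufa4, a subunit of complex IV despite its name, measured 78.9 and 73.8 RPKM in replicates 1 and 2 and 15.7 in replicate 3. Cox7c measured 50.5, 48.1 and 9.84, and Ndufb4, an accessory subunit of complex I, 40.1, 36.5 and 6.33. In contrast, Cox4i1 measured 164.6, 177 and 302, Ndufb7 55.7, 46.1 and 104, and Ndufa5 23.2, 19.7 and 47.8. Subunits of the same complex thus lay on both sides.

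**Figure D5:**
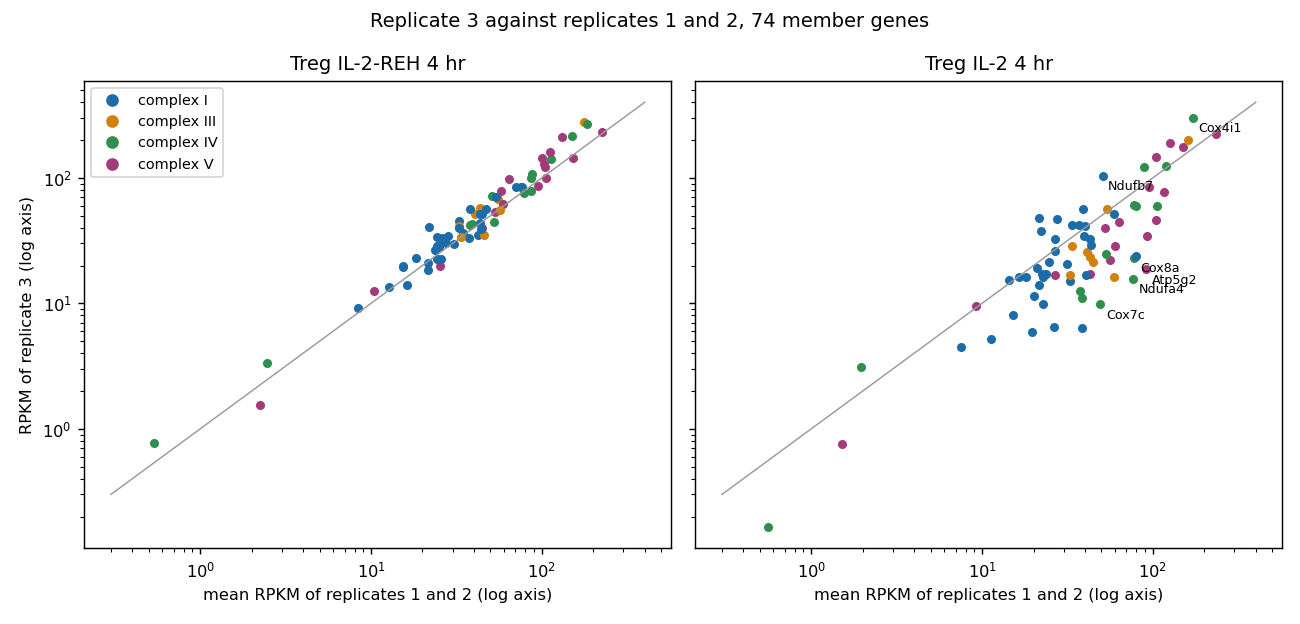
RPKM of replicate 3 against the mean of replicates 1 and 2 for the 74 genes at 4 hr (log axes), with IL-2-REH on the left and IL-2 on the right, coloured by complex. The line marks equal values. With IL-2 the points scatter widely, with Ndufa4 at 15.7 and Cox4i1 at 302 RPKM in replicate 3.

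In CD8+ T cells the module was lower after 90 min or 4 hr with either cytokine than at 0 hr, most of all with IL-2-REH. There is 1 library per group, so these values have no test, and ratios are of RPKM + 1. The RPKM of the 80 genes summed to 4307 in unstimulated cells, 3557 after IL-2 and 3159 after IL-2-REH at 90 min, and 3576 and 3107 at 4 hr. Of 72 genes with a mean of at least 1 RPKM in these libraries, 64 were highest in the unstimulated library, as were 37.6% of all 10021 such genes, and 34 were lowest with IL-2-REH at 4 hr, as were 16.3% of all. The median log2 ratio to unstimulated cells was −0.27 after IL-2 and −0.47 after IL-2-REH at 90 min, and −0.23 and −0.46 at 4 hr. Over all genes these medians were −0.04, −0.12, −0.07 and −0.02, and over 512 short genes outside the module −0.24, −0.38, −0.29 and −0.39. In bulk RNA, fewer cells of a type and less RNA per cell cannot be told apart.

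Genes past a log2 ratio of 0.5 were found on the low side only. With IL-2 at 90 min they were 12 of 72, against 18.2% of all genes, and with IL-2-REH at 90 min 32 of 72 (44.4%), against 23.3%, which with TMM scaling became 18 of 72, against 18.5%. With IL-2 at 4 hr they were 5 of 72, against 14.0%, and with IL-2-REH at 4 hr 28 of 72 (38.9%), against 16.5%. On the high side there were 0 of 72 in each, against 13.4%, 11.9%, 6.87% and 12.6% of all genes. The lowest ratios with IL-2-REH were those of Uqcr11 of complex III, −1.09 at 90 min and −1.05 at 4 hr, and of Atp5g1, −1.19 at 4 hr. Uqcr11 measured 29.3 RPKM unstimulated, 17.4 and 13.2 with IL-2 and IL-2-REH at 90 min, and 21.5 and 13.6 at 4 hr. Atp5g1 measured 31.8, then 19.5 and 19.1, then 20.8 and 13.4. With IL-2 the lowest were Ndufa7, an accessory subunit of complex I, at −0.73 at 90 min and Atp5g2 at −0.73 at 4 hr. Atp5g2 measured 139.6 RPKM unstimulated, 92.5 and 76.2 at 90 min, and 83.6 and 79.1 at 4 hr. Ndufs5 was the highest with IL-2 at 4 hr, at 0.21.

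Between the cytokines, the CD8+ library with IL-2-REH lay below the one with IL-2 in nearly all genes of the module. At 90 min it was lower in 70 of 72 genes, with a median log2 ratio of −0.17, and at 4 hr in 66 of 72, with a median of −0.24. The median over all genes was −0.07 at 90 min and 0.08 at 4 hr, and over short genes outside the module −0.14 and −0.10. At both times 64 of 72 genes were lower with IL-2-REH, as were 34.05% of all genes. Few ratios were large, with 0 of 72 below −0.5 at 90 min, against 3.39% of all genes, and 6 of 72 at 4 hr, against 6.44%. Above 0.5 there were 0 of 72 at either time, against 0.599% and 6.23% of all genes. From 90 min to 4 hr, Ndufa3 was the 1 gene above 0.5 with each cytokine, against 5.78% of all genes under IL-2 and 10.8% under IL-2-REH, and 0 of 72 lay below −0.5, against 7.65% and 4.98%. Of the ratios of IL-2-REH to IL-2 at 4 hr, the 5 lowest were Uqcr11 at −0.62, Atp5g1 at −0.60, Ndufb7 at −0.58, Cox7b at −0.56 and Uqcrq at −0.53, while Atp5sl stood at 0.46, Atp5s at 0.24 and Cox7a2l at 0.21. The 2 genes named for the ATP synthase without belonging to it were thus the highest. The same-numbered Treg pairs had medians of 0.19, −0.10 and 0.11 at 90 min and of 0.19, −0.06 and 0.70 at 4 hr. The CD8+ medians lie within the range of −0.66 to 0.32 seen between replicates in Tregs. That range is from libraries of different numbers, while the CD8+ libraries all bear number 1, so it is not a like measure. Whether the cell types differ in the ratio of IL-2-REH to IL-2 was not tested.

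Levels in the cell types overlapped. For 0 of 73 genes did the 5 CD8+ values all lie above the 15 Treg values, against 2.74% of all genes, and for 0 of 73 all below, against 7.24%. Without the Treg libraries of replicate 3, 9 of 73 (12.3%) lay below, against 12.2% of all genes, among them Atp5d, Cox6b2, Cox7c and Uqcrc1. The highest log2 ratio of CD8+ over Treg means (of RPKM + 1) was 0.55 for Ndufa10, an accessory subunit of complex I, with 30.6 to 52.4 RPKM in CD8+ T cells and 16.1 to 31.8 in Tregs. Next was Cox7a2l at 0.38, with 176 to 239 against 106 to 214 RPKM. The lowest was −0.92 for Cox6b2, with 0.212 to 0.624 against 0.473 to 3.33 RPKM, where 1 Treg library lies in the CD8+ range, followed by −0.87 for Atp5d, with 46.6 to 68.8 against 63.4 to 146 RPKM. Within matched groups, the unstimulated CD8+ library differed from the 3 Treg libraries by median log2 ratios of 0.00, −0.09 and 0.14. With IL-2-REH at 4 hr it differed by −0.58, −0.32 and −0.66 and lay below all 3 Treg libraries in 58 of 73 genes, against 40.5% of all genes. With IL-2 at 4 hr it lay below all 3 in 19 of 73, against 33.6%.

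Unstimulated Tregs showed how far single genes vary between libraries. The widest spread was that of Atp5d, which measured 127, 92.0 and 63.4 RPKM in the 3 unstimulated libraries. Ndufb3 measured 19.2, 33.4 and 35.4 and Ndufb6, also an accessory subunit of complex I, 29.7, 28.5 and 18.2. The libraries were not ordered alike in these genes, since replicate 1 was highest in Atp5d and Ndufb6 and lowest in Ndufb3.

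Of other genes of the pathway, complex II, assembly factors, carriers and regulators were followed as lists of 72 genes, of which 67 were in the files and tested. With edgeR, 0 rose and 1 fell with IL-2 at 90 min, where 0.854% of all genes were called, and 0 rose and 2 fell with IL-2 at 4 hr, where 2.26% were. After IL-2-REH 0 of 67 passed at either time, where 0.0934% and 0.314% of all genes were called. At an unadjusted p under 0.05 by edgeR there were 8 at 90 min and 11 at 4 hr after IL-2. After IL-2-REH there were 7 and 9. The share of all genes at that cutoff is not given here. DESeq2 called 4 and 6 of 67 after IL-2, and 1 and 2 after IL-2-REH, at 90 min and 4 hr, against 3.74%, 6.64%, 0.754% and 3.77% of all genes. The gene that fell at both times with IL-2 was Sdhaf1, an assembly factor of complex II. It measured 24.0, 36.4 and 39.6 RPKM in unstimulated Tregs, 11.3, 10.8 and 8.15 with IL-2 at 90 min and 7.42, 15.1 and 8.58 with IL-2 at 4 hr. With IL-2-REH it measured 17.0, 15.03 and 12.4 at 90 min and 10.8, 21.1 and 20.4 at 4 hr. All 12 stimulated libraries lie below the 3 unstimulated ones. The log2 fold change of Sdhaf1 with IL-2 was −1.58 at 90 min (adjusted p = 0.012) and −1.63 at 4 hr (adjusted p = 0.008). With IL-2-REH at 4 hr it was −0.92 (adjusted p = 0.153, and 0.041 with the replicate number as a block). In CD8+ T cells Sdhaf1 measured 9.65 RPKM unstimulated, 6.11 and 5.78 at 90 min and 5.54 and 7.11 at 4 hr with IL-2 and IL-2-REH. The other gene that fell was Cox16, an assembly factor of complex IV, which measured 7.70, 7.04 and 6.30 RPKM unstimulated and 3.92, 3.67 and 2.197 with IL-2 at 4 hr, a log2 fold change of −1.06 (adjusted p = 0.036). Exons of Sdhaf1 overlap E130208F15Rik on the other strand and those of Cox16 overlap Gm20498 on the same strand, so that reads there are uncertain.

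Among 13 regulators of mitochondrial genes none passed edgeR's test without the block. With the block, 1 rose and 2 fell with IL-2 at 4 hr, where 6.94% of all genes were called. Against unstimulated cells, DESeq2, without the block, called Myc and Gabpb1 with IL-2 at 90 min and Myc and Tfb1m with IL-2 at 4 hr. It also called Ppargc1b with IL-2-REH at 4 hr. Gabpb1, a partner of GABPA chosen here after its values were seen, measured 38.3, 15.1 and 12.7 RPKM unstimulated and 47.2, 69.5 and 71.3 with IL-2 at 90 min, and its log2 fold change was 1.62 (adjusted p = 0.112 by edgeR, and 0.086 with the block). Myc, a growth factor-induced transcription factor, measured 15.2, 35.9 and 27.1 RPKM unstimulated, 53.8, 148 and 92.4 with IL-2 and 28.5, 54.7 and 38.4 with IL-2-REH at 90 min. Its log2 fold change with IL-2 at 90 min was 2.13 (adjusted p = 0.060, and 0.0002 with the block) and at 4 hr 1.51 (adjusted p = 0.120, and 0.001 with the block). Ppargc1b, a coactivator of mitochondrial genes, had a log2 fold change of −1.23 with IL-2 at 4 hr (adjusted p = 0.144, and 0.026 with the block) and of −1.47 with IL-2-REH at 4 hr (adjusted p = 0.150, and 0.015 with the block). Tfb1m, a methyltransferase for mitochondrial ribosomal RNA, had −1.44 with IL-2 at 4 hr (adjusted p = 0.099, and 0.046 with the block), and its exons overlap Tiam2 on the other strand.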

How the data were processed

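RNA was measured in 15 Treg and 5 CD8+ libraries. The authors mapped reads to mm10 with Bowtie2 2.2.6 and TopHat2 2.1.1, and deposited the read counts on exons of each RefSeq transcript, without normalization, beside its RPKM. Unique mapping can lower genes with near-identical copies. The transcript with the most reads stood for each symbol. Counts of all genes were tested with edgeR 4.0.16 (TMM, filterByExpr, quasi-likelihood test, 1 mean per group, Benjamini-Hochberg adjustment) in R 4.3.3, and CD8+ libraries were compared by RPKM + 1 without a test. Depth was 20201392 to 63903764 reads on genes per library. Replicate numbers in the sample titles paired the Treg libraries, since same-numbered libraries deviated together (correlations 0.121 to 0.840), which the fit without the block leaves out. Alternatives were limma 3.58.1 on log2(RPKM + 1), DESeq2 1.42.0, the block, other scalings, filters, transcripts and left-out libraries, the last chosen in part after seeing the data. Named genes passed a test, or were extremes of a complex in level, fold change, cell-type ratio or spread. The members and lists were chosen with earlier results of these data known. Figures used matplotlib 3.10.9. The fit was tested on simulated data. No mitochondrially encoded gene was analysed here. Values of 1 member are not reported here singly.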

Additional observations from a re-analysis of the deposited data

Results flagged for a closer look

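Among the genes named above for a fold change or for Treg groups that do not overlap, 7 had each of the 3 same-numbered Treg pairs move in the direction opposite to the single CD8+ pair, on the log2 ratio of RPKM + 1, and the difference between the cell types was not tested. For IL-2-REH at 4 hr against unstimulated cells these were Ndufs5, with 0.82, 0.17 and 0.65 in Tregs and −0.28 in CD8+ T cells, Ndufa11, with 0.33, 0.28 and 0.89 against −0.34, Cox5a, with 0.03, 0.05 and 0.88 against −0.43, and Uqcrc1, with 0.02, 0.14 and 0.48 against −0.25. For IL-2-REH against IL-2 at 4 hr they were Ndufv2, with 0.22, 0.12 and 1.58 in Tregs and −0.15 in CD8+ T cells, and Ndufb5, with 0.31, 0.07 and 0.77 against −0.10. Atp5d had 0.21, 0.28 and 0.10 in Tregs and −0.28 in CD8+ T cells for IL-2 at 90 min against unstimulated cells. Over all 72 genes measured in both cell types, such opposite directions were found in 6, 8 and 2 genes in these 3 comparisons. The share over all genes was not counted, so these counts do not set the module apart. Genes whose Treg groups do not overlap have all 3 pairs on 1 side by that choice. The CD8+ ratio was below 0 in 70, 66 and 69 of the 72 genes in these comparisons. An opposite direction was thus nearly fixed in advance for a gene higher in Tregs.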

How the results depend on the processing

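In each of the 9 Treg comparisons the count of genes of the module called was 0 in the 15 other settings, and the replicate block changed no call among them. The lowest adjusted p of a member over these settings was 0.052, for IL-2-REH at 4 hr. Median log2 fold changes of the members, over fits without 1 replicate number, ranged from −0.23 to −0.05 (IL-2, 90 min), −0.09 to 0.01 (IL-2-REH, 90 min), −0.18 to −0.05 (IL-2, 4 hr), −0.06 to 0.20 (IL-2-REH, 4 hr), −0.01 to 0.18 (IL-2-REH against IL-2, 90 min) and 0.01 to 0.39 (the same, 4 hr). Single genes reversed their sign. Uqcr11 (IL-2-REH at 4 hr) ranged from −0.036 to 0.483 with a replicate number left out. For IL-2-REH against IL-2 at 4 hr these ranges were −0.10 to 1.17 for Cox7a1, −0.476 to 0.230 for Ndufb7, −0.16 to 0.732 for Uqcrb, −0.319 to 0.045 for Cox6a1 and −0.087 to 0.066 for Uqcrc1, where the last 2 and Ndufb7 reach their highest value without replicate 3 of IL-2 at 4 hr. Without replicate 3, Ndufb7 stood at 0.03 and Uqcrc1 at 0.01, and with limma Uqcrc1 stood at 0.045. The cause was not tested.

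In CD8+ T cells a threshold of 1 left 0 genes past it with IL-2 at either time, 1 and 2 with IL-2-REH at 90 min and 4 hr, and 0 between cytokines at 4 hr and between times. The share of all genes past 1 is not given here, so these counts do not set the module apart. With TMM scaling 18 genes passed 0.5 with IL-2-REH at 90 min, as did 18.5% of all genes. Between 90 min and 4 hr of IL-2-REH, TMM scaling left 1 gene higher and 1 lower past 0.5, against 7.87% and 6.78% of all genes. A pseudocount of 0.1 left 2 past it, and the share over all genes is not given here. With TMM scaling, 57 of 72 genes were highest in the unstimulated CD8+ library and 55 lowest with IL-2-REH at 4 hr, against 33.3% and 21.1% of all genes. CD8+ and Treg values did not overlap in 1 gene (Ndufa10, higher in CD8+ T cells) with TMM scaling, against 11.6% of all genes, and in 0 to 9 genes with a Treg replicate left out, against 11.3% to 15.8%, 9 of them, all lower in CD8+ T cells, without replicate 3. The ratio between the highest and lowest library was 1.72 for complex I and 1.51 for all members with TMM scaling. Cox6b2, with 6 to 108 reads per library, is limited by depth, and the CD8+ values have no replicate error.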
